A study of Homo sapiens with 104 samples.

Results

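The HLA class II presentation genes examined here were HLA-DRA, HLA-DPA1, HLA-DPB1, HLA-DQA1, HLA-DMA, HLA-DMB, HLA-DOA, HLA-DOB, CD74 and CIITA. They were taken as the probe sets annotated with the single symbol of one of these genes. All 10 genes were measured, by 25 of the 41097 probe sets with a single symbol, and all 10 were among the 13842 genes tested, of 19775 genes measured. Transcript levels came from Affymetrix arrays of lymphoblastoid lines, B cells grown in culture, each in mid log phase and either untreated or exposed to MNNG, a methylating agent. There were 24 panel lines, known by number, and 2 further lines: TK6, which is long established, and MT1, an alkylation-resistant derivative of TK6 that lacks mismatch repair. Each line and condition had 2 arrays. The labels give neither MNNG dose nor exposure time. They do not say whether duplicates were separate cultures, so the spread behind p-values taken from duplicates may be technical.

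Class II molecules are pairs of an alpha and a beta chain that carry peptides from endocytosed proteins to the surface of antigen-presenting cells, where CD4 T cells read them. The invariant chain CD74 fills the groove during assembly, HLA-DM (HLA-DMA with HLA-DMB) exchanges its last fragment for peptide, and HLA-DO (HLA-DOA with HLA-DOB), found mainly in B cells, restrains HLA-DM. CIITA is the transactivator that switches the family on, acting through the RFX, CREB and NF-Y factors bound to a conserved promoter module whose X box is followed by a Y box with the letters CCAAT or their reverse complement. B cells express the family without induction.

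The upstream promoters of the HLA-DM and HLA-DO genes are shown because these 4 genes had, by their brightest probe sets, the largest changes of the family in TK6. Each line gives the 250 bases before the gene's start, 5′ to 3′ on the gene's own strand (RefSeq, GRCh38.p14, all 4 on the minus strand). Capitals mark CCAAT, the letters of the Y box, and its reverse complement ATTGG.
HLA-DMA, chr6:32953098-32953347: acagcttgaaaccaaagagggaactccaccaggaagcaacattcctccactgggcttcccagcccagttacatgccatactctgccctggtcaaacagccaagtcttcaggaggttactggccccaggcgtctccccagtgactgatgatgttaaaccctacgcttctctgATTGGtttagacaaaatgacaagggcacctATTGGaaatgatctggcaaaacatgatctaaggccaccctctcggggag
HLA-DMB, chr6:32941029-32941278: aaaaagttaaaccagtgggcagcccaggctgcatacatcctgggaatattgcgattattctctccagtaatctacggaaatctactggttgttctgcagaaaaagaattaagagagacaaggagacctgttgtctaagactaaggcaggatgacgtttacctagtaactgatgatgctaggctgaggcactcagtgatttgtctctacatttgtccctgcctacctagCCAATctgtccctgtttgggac
HLA-DOA, chr6:33009592-33009841: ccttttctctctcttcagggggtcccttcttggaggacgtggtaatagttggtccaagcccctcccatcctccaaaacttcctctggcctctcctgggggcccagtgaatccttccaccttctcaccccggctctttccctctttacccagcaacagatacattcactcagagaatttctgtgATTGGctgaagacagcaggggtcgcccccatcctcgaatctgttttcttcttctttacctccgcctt
HLA-DOB, chr6:32817003-32817252: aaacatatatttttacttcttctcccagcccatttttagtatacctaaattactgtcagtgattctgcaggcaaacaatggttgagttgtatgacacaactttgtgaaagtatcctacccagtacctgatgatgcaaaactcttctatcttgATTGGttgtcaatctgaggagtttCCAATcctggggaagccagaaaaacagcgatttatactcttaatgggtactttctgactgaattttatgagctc
The match nearest the start began 49 bases before it in HLA-DMA, 22 in HLA-DMB, 67 in HLA-DOA and 74 in HLA-DOB, and HLA-DMA and HLA-DOB each held another, 79 and 98 bases before the start. Of the 8 members with a promoter entry, 7 held CCAAT on either strand. Among all 35116 windows of the same length 32% did, and a match is a description, not a bound site. HLA-DRA and CIITA have no entry in the table used.

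Of the 52 MNNG arrays, 22 stood apart in the probe sets of the spiked-in cre transcript, in which the 5′ probe set AFFX-r2-P1-cre-5_at lay at least 5.19 log2 units below AFFX-CreX-5_at. In the 82 arrays kept the same difference was 0.082 to 0.83 log2 units above 0. The arrays left out were 21 of the panel and 1 of MT1, which left 19 panel lines with MNNG data (8 with both arrays and 11 with 1). In the MT1 array left out, HLA-DPA1 read 33.2, HLA-DPB1 59.9 and CD74 34.0, while HLA-DRA read 6119 and HLA-DMB 722. The B-cell label held in the untreated panel, where MS4A1 (CD20) read 3037 to 7069. MS4A1 was low in untreated MT1, at 42.3 and 69.2, while CD79A, a chain of the B-cell receptor, read 1206 and 1362 there. Other B-cell markers of untreated MT1 lay below the lowest untreated panel array. CD79B read 134 and 150 against 203, CD22 192.7 and 193.3 against 275, and PAX5 838 and 1103 against 1114. The summed intensity of 11 B-cell markers was 2901 and 3066 in untreated MT1 and 9363 to 16704 in the untreated panel. In the panel after MNNG, 6 of these 11 were called lower and none higher (limma). Of 7 plasma-cell markers, 6 were called higher and 1 lower there. Of all genes tested, 28.7% were called higher and 13.8% lower. The part of these shifts in the class II changes was not tested. Of the markers of other cells, 3 of 12 for T and NK cells (CD3G, CD8A and NCAM1) were below 64 in every array, as were 2 of 10 for myeloid and dendritic cells (CD14 and FCGR1A) and 4 of 10 for fibroblasts and epithelium (COL3A1, DCN, EPCAM and KRT19). Their summed intensities in the untreated panel ran from 222 to 828, from 206 to 1249.6 and from 191 to 1901, and after MNNG from 228 to 810.0, from 314 to 1398 and from 175 to 1569.

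In untreated panel lines the HLA-DQA1 probe set 213831_at differed far more between lines than the brightest probe set of any other member, and other HLA-DQA1 probe sets read differently, as given below. The F test across lines (limma, Benjamini-Hochberg) called 9 of 10 members, all but CD74 (adjusted p = 0.641), where 68.1% of all genes tested were called. With median centring HLA-DRA, HLA-DPA1 and HLA-DPB1 were not called, and on values as deposited CD74 was (adjusted p = 0.0327). The SD of the log2 level over the 24 lines had a median of 0.34 over the members and 0.20 over all genes. The SD was 3.00 for HLA-DQA1, 0.74 for HLA-DOB, 0.44 for HLA-DMB, 0.38 for HLA-DOA and 0.36 for CIITA. It was 0.31 for HLA-DMA, 0.27 for HLA-DPB1, 0.17 for HLA-DPA1, 0.15 for CD74 and 0.14 for HLA-DRA. By these probe sets, the brightest of each gene, the line means of HLA-DRA covered a 1.52-fold range and those of HLA-DPA1 a 1.69-fold range. The dimmer probe sets gave other values: the SD was 0.54 for 213537_at and 0.31 for 211991_s_at of HLA-DPA1, and 0.11 for 1554984_a_at of HLA-DOB, so no order between the presenting chains and the DM and DO chains is drawn from them.

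The untreated levels are given as deposited intensity, the lowest, median and highest of 24 line means. HLA-DRA, the alpha chain of the main class II molecule, read 5219, 7802 and 9336. HLA-DPA1 read 3992, 6115 and 7387, and its partner HLA-DPB1 read 2740, 4040 and 5422. CD74 read 5195, 7988 and 10152. These transcripts were bright in every line. HLA-DMA read 863, 1587 and 2488, HLA-DMB 558, 1115 and 2372, HLA-DOA 240, 466 and 734, and HLA-DOB 70.2, 476 and 815. For HLA-DOB the lowest line lay 8.15-fold below the highest on the normalised scale. CIITA, a transcription factor gene, read 24.9, 84.0 and 151.2, close to the floor of 16 in its lowest line. Intensities of different probe sets are not comparable as transcript amounts, so no order between the genes is drawn from them.

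HLA-DQA1, the alpha chain of the DQ molecule, was on or off by probe set. The probe set 213831_at, the brightest on average, read 1793 to 5468 in 16 lines and no more than 40.7 in the other 8. The probe set 203290_at read 2781 to 6219 in 12 lines and no more than 38.1 in the other 12. Another, 236203_at, read 197 to 2187 in 16 lines and no more than 29.4 in 8. No array lay between these groups, and the dividing intensity of 100 was set after the gap was seen. In 11 lines 213831_at alone of the first pair was high, in 7 lines 203290_at alone, in 5 lines both and in 1 line neither. This last probe set was high exactly where 213831_at was. Over the 24 lines the correlation of log2 levels was -0.58 between 203290_at and 213831_at and 0.96 between 213831_at and 236203_at. When the higher of the first 2 probe sets was taken in each line, 1 line stayed low. The others lay within a 2.80-fold range. Probe sequences were not used here, and the low reading of a single probe set is not taken as a low level of the gene.

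**Figure D1:**
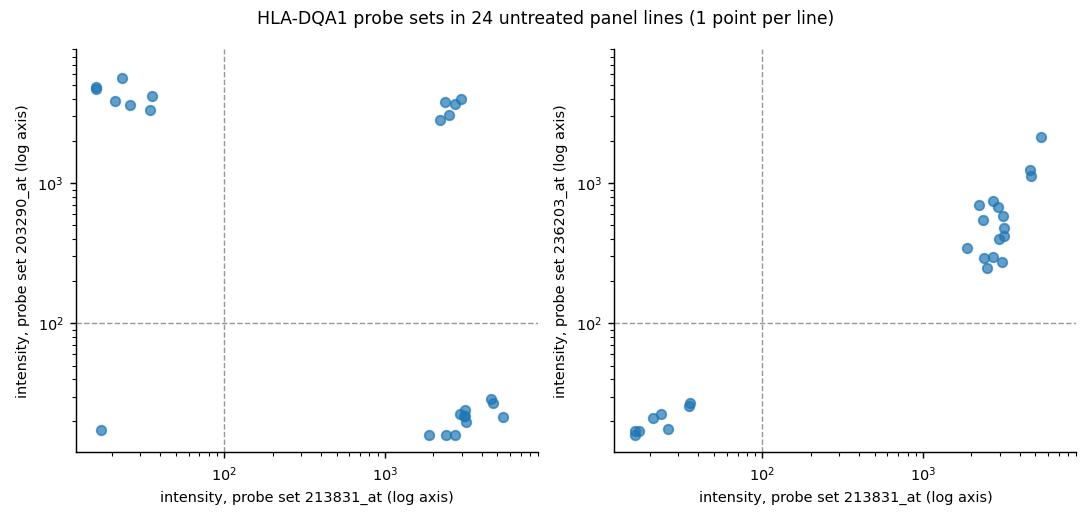
Deposited intensity of HLA-DQA1 probe sets in 24 untreated panel lines, both axes logarithmic, 1 point per line (mean of 2 arrays), with dashed lines at 100. On the left 203290_at is set against 213831_at, and the points fall into 4 groups of 11, 7, 5 and 1 lines; on the right 236203_at rises with 213831_at.

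The other members varied together from line to line. Among the 36 pairs without HLA-DQA1, Pearson's r over the 24 untreated line means ran from 0.30 to 0.82 with a median of 0.575. Among the 9 pairs with HLA-DQA1, read by 213831_at alone, it ran from 0.094 to 0.36. A low reading of that probe set is not taken as a low level of the gene. These 9 values therefore do not show whether the level of HLA-DQA1 varied with the other members. All correlations between members are descriptions over lines that share arrays and normalisation. The range over pairs of all genes was not computed. The question put to CIITA was whether its own level followed that of the genes it activates. Against CIITA, r was 0.76 for HLA-DPB1 (Spearman's rho 0.79), 0.75 for HLA-DRA (0.77) and 0.72 for HLA-DOA (0.74), each with a permutation p adjusted over 9 relations of 0.0003 or less, two-sided. It was 0.65 for HLA-DPA1, 0.56 for HLA-DOB, 0.50 for CD74, 0.49 for HLA-DMB and 0.49 for HLA-DMA, all of which also passed. The share of all genes that would pass the same test against CIITA was not computed. The passes are therefore not read as particular to the members. The CD74 relation depended on the replicate: r was 0.41 without the first replicate and 0.37 without the second, neither passing, and with CIITA from replicate 1 and CD74 from replicate 2 it was 0.16 (adjusted permutation p = 0.443), against 0.59, which passed, the other way round. This crossing of replicates was chosen after seeing the data. HLA-DQA1, taken over the 16 lines in which 213831_at was high, did not pass by Pearson's r (0.49, adjusted permutation p = 0.053) but did by Spearman's rho (0.56, adjusted permutation p = 0.0293). Its r passed on deposited values with pseudocounts of 16, 1 and 64 (0.63 to 0.64). All of these settings left out quantile normalisation, so they are not separate checks. With normalisation it was 0.039 without the 2 lines farthest from the median CIITA level.

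Without those 2 lines r was 0.70 for HLA-DPB1, 0.67 for HLA-DRA and 0.69 for HLA-DOA, while HLA-DMA (0.36), HLA-DMB (0.40) and CD74 (0.42) no longer passed over the 22 lines left. For CD74 Spearman's rho did not pass in the full set either (0.40, adjusted permutation p = 0.0535). The scaling mattered more: with arrays centred on their medians in place of quantile normalisation only 2 of the 9 relations passed, those of HLA-DPB1 and HLA-DOA. The genes outside the 10 members most alike to CIITA over the 24 lines were LCP1 (r = 0.79), TARBP1 (0.79) and AGK (0.75). Those most alike to HLA-DRA were RAB11FIP1 (0.87), B3GNT6 (0.80) and HLA-DRB1 (0.79), the beta chain that pairs with it. Those most alike to CD74 were OGDH (0.75), LSM14B (0.73) and PRDX1 (0.73). For HLA-DQA1, read by 213831_at alone, they were BMS1P20 (0.67), TLCD1 (0.66) and ZNF366 (0.63). These last genes are not read as alike to the level of HLA-DQA1, since a low reading of that probe set is not taken as a low level.

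**Figure D2:**
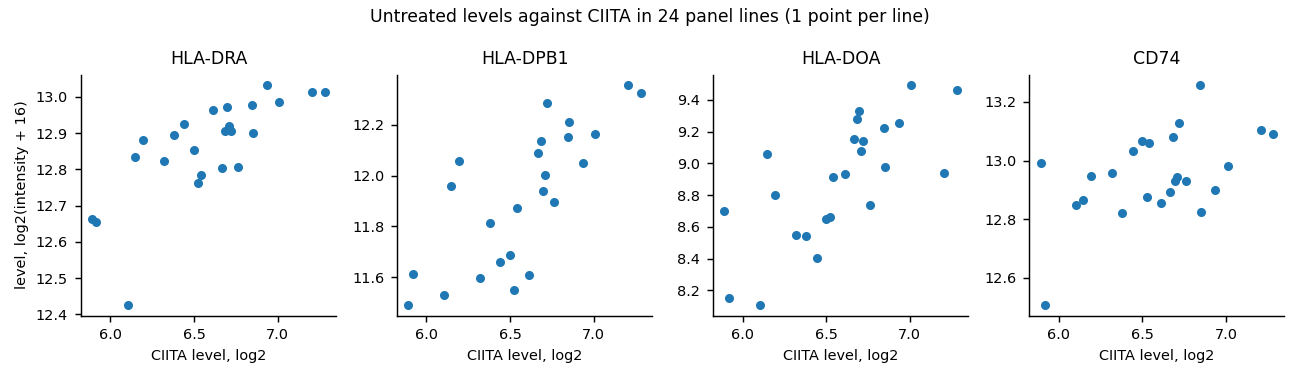
Untreated log2 level, log2(intensity + 16) after quantile normalisation, of HLA-DRA, HLA-DPB1, HLA-DOA and CD74 against that of CIITA, 1 point per panel line (24 lines). The first 3 genes rise with CIITA (r = 0.75, 0.76 and 0.72); CD74 does so less closely (r = 0.50).

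After MNNG, CD74 fell across the panel while the DM and DO genes were slightly higher. Over 19 lines, 5 members were called higher and 1 lower, where 28.7% of all genes tested were called higher and 13.8% lower (42.6% in all). The median change of the members was 0.041 log2 units, against 0.037 over all genes. In the 19 lines CD74 intensity ran from 5195 to 9330 untreated with a median of 7844, and from 4537 to 7784 with a median of 6290 after MNNG. In 17 of 19 lines every MNNG array lay below every untreated array. CD74 fell by 0.35 ± 0.034 log2 units (SE, 19 lines, limma adjusted p = 4.83e-08), a 1.28-fold fall, and was lower in 18 of 19 lines. A second CD74 probe set, 1567628_at, fell by 0.98 (adjusted p = 1.67e-09 with every probe set fitted separately), and 1567627_at, which was dim, changed by -0.012.

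The CD74 readings were the least repeatable of the family. By the brightest probe sets, the pooled SD of single arrays was 0.22 log2 units for CD74, against 0.050 for HLA-DPB1 and 0.074 for HLA-DMB. Duplicates of CD74 differed by up to 0.61 there. For 1567628_at of CD74 the pooled SD was 0.51, and duplicates differed by up to 1.63. The fall was 0.41 without the first replicate and 0.23 without the second, and called in both. It was also called, at 0.33 to 0.56, under the 11 alternative settings that kept the 82 arrays and in both subsets of lines, those with 2 MNNG arrays and those with 1.

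Of the peptide editors, HLA-DMB rose by 0.24 ± 0.035 (adjusted p = 7.06e-06), with medians of 1104 untreated and 1370 after MNNG. In 16 of 19 lines every MNNG array lay above every untreated one. Its partner HLA-DMA rose by 0.085 ± 0.027 (adjusted p = 0.0125) and was higher in 13 of 19 lines. HLA-DOB rose by 0.22 ± 0.042 (adjusted p = 0.000228) in 16 of 19 lines, and HLA-DOA by 0.15 ± 0.040 (adjusted p = 0.00448) in 14 of 19. With arrays centred on their medians none of these 4 was called, and HLA-DMA turned sign (-0.072). Nor was any of them called when the line was not a block. Without the first replicate HLA-DMA, HLA-DOA and HLA-DOB were not called. The probe sets of HLA-DO also disagreed: 206313_at of HLA-DOA fell by 0.18 and 1554984_a_at of HLA-DOB fell by 0.081, both called with every probe set fitted separately.

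The presenting chains hardly moved in the panel. HLA-DRA was called at 0.035 ± 0.013 (adjusted p = 0.0302), but its deposited intensity had a median of 7531 untreated and 7310 after MNNG, and its change was -0.18 with median centring and -0.030 without any normalisation. HLA-DPB1 changed by 0.037 (adjusted p = 0.0960), HLA-DPA1 by 0.014 (0.455) and HLA-DQA1 by -0.018 (0.643), none of them called. For HLA-DPA1 this depended on the probe set: 211991_s_at rose by 0.069 (adjusted p = 0.0210, every probe set fitted) and the mean of its probe sets by 0.046 (adjusted p = 0.0289). In 19 of 19 lines each HLA-DQA1 probe set stayed on the side of 100 it had untreated. CIITA changed by 0.045 (adjusted p = 0.307), and its probe set 211884_s_at fell by 0.17 (adjusted p = 0.00174, every probe set fitted). Lines differed in their response in 3 members, HLA-DMB, HLA-DOA and HLA-DOB, where 6.13% of all genes tested did so.

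**Figure D3:**
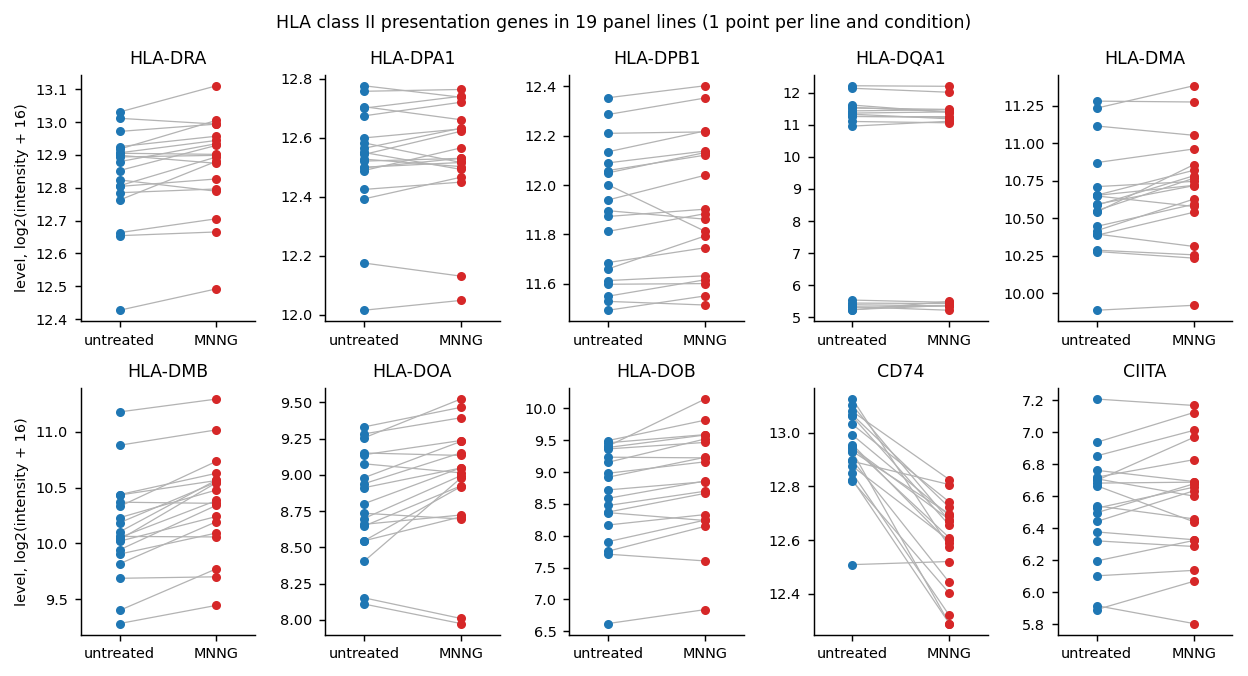
Log2 level, log2(intensity + 16) after quantile normalisation, of each member in the 19 panel lines with MNNG data; each line is a pair of points joined, untreated in blue and MNNG in red, and each vertical axis has its own range. CD74 falls in 18 of 19 lines, HLA-DMB rises in 17, and HLA-DQA1 (213831_at) stays in its high or low group.

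Untreated TK6 and MT1 lay below the panel for most members, a difference given as a description and not tested. On the normalised scale both lay below every one of the 24 panel lines for HLA-DPA1, HLA-DPB1, HLA-DMA, HLA-DMB, HLA-DOA, HLA-DOB and CD74. In deposited intensity, untreated CD74 of TK6 (3937 and 5998) and MT1 (3925 and 6138) lay on both sides of the lowest panel line mean (5195). So did untreated HLA-DMB of MT1 (576 and 446, against 558). For HLA-DRA, TK6 lay above 1 panel line and MT1 above 3, and for CIITA they lay above 5 and 4. All 3 HLA-DQA1 probe sets read 25.9 or less in the untreated arrays of both. The 2 lines also differed from each other. HLA-DMB read 96.0 and 75.2 in TK6 and 576 and 446 in MT1, 2.21 ± 0.074 log2 units higher in MT1 (adjusted p = 8.51e-26). HLA-DMA was 1.04 higher, HLA-DOB 0.64 and HLA-DPA1 0.18 higher in MT1. No member was called lower (limma, with 2 lower at an unadjusted p below 0.05). Of all genes 13.6% were called higher and 11.7% lower. The HLA-DPA1 call was lost without the second MT1 array (0.12) or the first TK6 array (0.092). IRF8, a B-cell transcription factor, had a log2 difference, MT1 minus TK6, of -3.24.

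In TK6 the brightest probe sets of the HLA-DM and HLA-DO genes rose after MNNG. Of the 10 members, 7 rose and none fell (limma; 7 and 0 at an unadjusted p below 0.05), where 21.6% of all genes tested were called higher and 19.5% lower (41.2% in all), and the median change was 0.59 for the members and -0.029 for all genes. HLA-DMB read 96.0 and 75.2 untreated and 567 and 553 after MNNG. HLA-DMA read 236 and 235, then 685 and 622. For both chains of HLA-DM the treated and untreated arrays lay well apart. HLA-DOA read 203 and 223, then 715 and 653. HLA-DOB read 20.1 and 19.5, close to the floor of 16, then 161 and 129, so its change on the log2(intensity + 16) scale understates the ratio. The log2 changes were 2.31 ± 0.074 for HLA-DMB (limma adjusted p = 1.96e-26), 1.83 ± 0.093 for HLA-DOB (6.33e-20), 1.52 ± 0.095 for HLA-DOA (6.80e-17) and 1.33 ± 0.077 for HLA-DMA (5.02e-18). The dimmer HLA-DO probe sets did not all rise: with every probe set fitted separately, 206313_at of HLA-DOA rose by 0.73, while 217001_x_at (0.25), 211142_x_at (-0.015) and 216946_at (-0.23) of HLA-DOA and 1554984_a_at of HLA-DOB (-0.020) were not called. With the mean of a gene's probe sets the rise was 0.45 for HLA-DOA and 0.91 for HLA-DOB, both still called. The promoters of these 4 genes, printed above, each hold CCAAT on either strand. So do those of HLA-DPB1, HLA-DQA1 and CD74, none of them called in TK6. The windows of HLA-DPA1, which was called higher, hold none. The part of the motif in the rise was not tested.

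CIITA read 46.0 and 43.4 untreated and 111.1 and 106.0 after MNNG in TK6, a rise of 0.78 ± 0.15 (adjusted p = 4.82e-05). The rise was seen in 205101_at only: 210925_at changed by 0.069 and 211884_s_at by 0.023, neither called. HLA-DPA1 rose by 0.40 ± 0.057 (adjusted p = 1.18e-07), from 3283 and 3580 to 4564 and 4526, and its other probe sets rose by 0.59 and 0.48. With median centring its change was 0.21 and not called. HLA-DPB1, on the other hand, read 2002 and 2162 and then 1960 and 1955 (0.010, adjusted p = 0.903). HLA-DRA rose by 0.18 (adjusted p = 0.0248), a call lost on values as deposited (0.10), without either untreated array (0.19 and 0.16) and without the second MNNG array (0.15), and turned to -0.096 with median centring. CD74 read 3937 and 5998 untreated and 6670 and 4277 after MNNG, so the groups overlapped (0.17, adjusted p = 0.599). HLA-DQA1 stayed at the floor, between 16.0 and 22.0 on all 3 probe sets in the MNNG arrays. On the normalised scale TK6 after MNNG lay above 22 of 24 untreated panel lines for HLA-DOA, 21 for CIITA, 7 for HLA-DRA, 2 for HLA-DPA1 and 1 for HLA-DOB. It still lay below all of them there for HLA-DMA, HLA-DMB, HLA-DPB1 and CD74. In deposited intensity, HLA-DMB (567 and 553) and CD74 (6670 and 4277) of TK6 lay on both sides of the lowest panel line mean (558 and 5195).

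**Figure D4:**
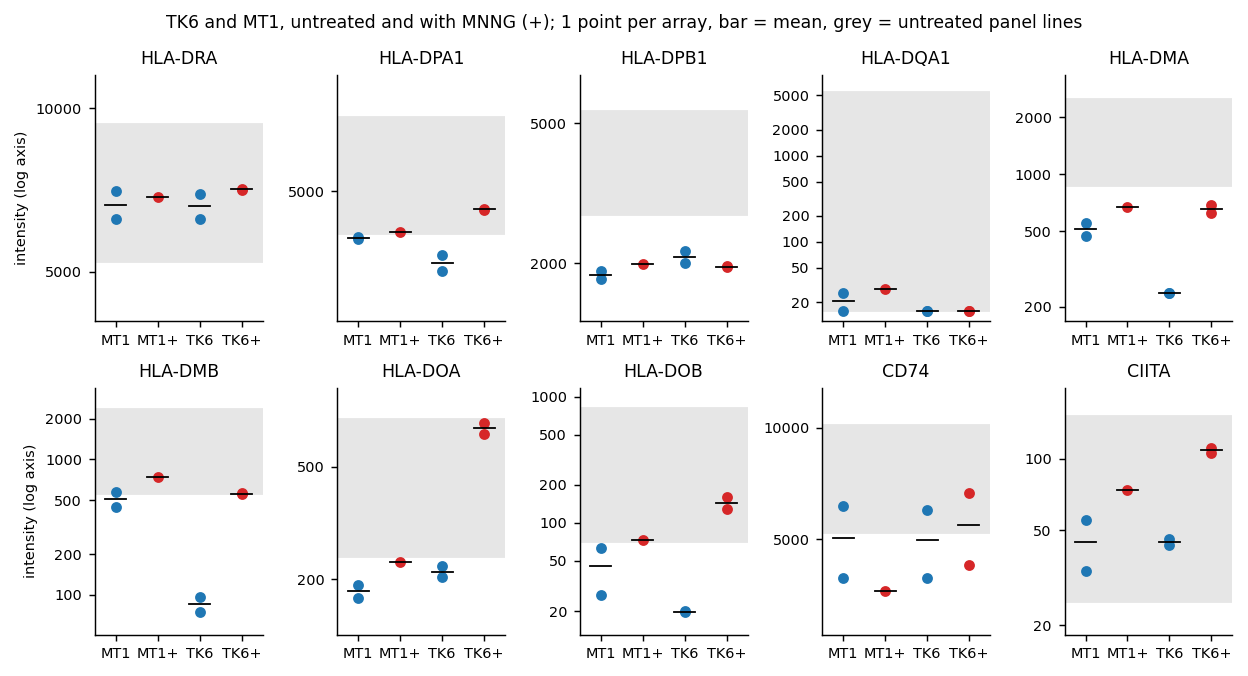
Deposited intensity (logarithmic axes, each with its own range) of each member in MT1 and TK6, untreated in blue and after MNNG (+) in red, 1 point per array with a bar at the mean; the grey band spans the untreated line means of the panel in deposited intensity, without normalisation. The HLA-DMA, HLA-DMB, HLA-DOA and HLA-DOB points of TK6 rise with MNNG (HLA-DMB from 96.0 and 75.2 to 567 and 553), and those of CD74 overlap.

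MT1 showed little of this response, with the limit that only 1 of its MNNG arrays was kept and was assumed to vary like the other groups. Only HLA-DMB was called, where 2.36% of all genes were called higher and 1.21% lower (3.56% in all). It read 576 and 446 untreated and 748 after MNNG (0.46 ± 0.090, adjusted p = 0.00208), and the call was lost without the second untreated array (0.34, adjusted p = 0.0518), with median centring (0.10) and without any normalisation (0.55). HLA-DMA changed by 0.30 (adjusted p = 0.0692), HLA-DOB by 0.20 (0.412), HLA-DOA by 0.13 (0.679) and CIITA by 0.19 (0.729). CD74 read 3925 and 6138 untreated and 3638 after MNNG (-0.44, adjusted p = 0.459). The difference of the responses, TK6 minus MT1, was 1.85 ± 0.12 for HLA-DMB (adjusted p = 4.23e-16), 1.63 ± 0.15 for HLA-DOB, 1.39 ± 0.15 for HLA-DOA, 1.03 ± 0.12 for HLA-DMA and 0.38 ± 0.089 for HLA-DPA1, the 5 members called, where 12.2% of all genes were called higher. For CIITA the difference was 0.59 ± 0.24 and not called (adjusted p = 0.0714). HLA-DMB, HLA-DMA, HLA-DOB and HLA-DPA1 started from higher levels in MT1, as given above, and the part of that in the difference was not tested.

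**Figure D5:**
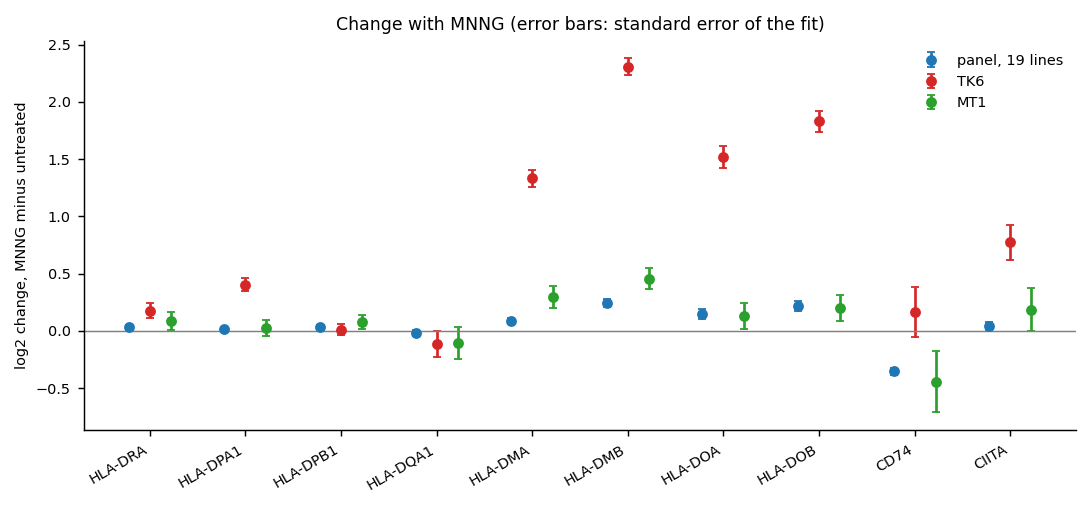
Log2 change with MNNG of each member in the panel (19 lines, blue), TK6 (red) and MT1 (green), with the standard error of the fit as bars. HLA-DMA, HLA-DMB, HLA-DOA and HLA-DOB of TK6 stand at 1.33 to 2.31, above their values in the panel and MT1, and CD74 of the panel stands at -0.35.

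Of the regulators of class II transcription, 19 of 20 listed genes were tested, and in the panel 7 rose and 5 fell, where 28.7% of all genes rose and 13.8% fell. The genes of the RFX complex all rose slightly, RFX5 by 0.065, RFXANK by 0.15 and RFXAP by 0.20. The B-cell factors IRF4, SPI1 and IRF8 fell by 0.39, 0.34 and 0.27. PRDM1, which represses CIITA as B cells turn into plasma cells, rose by 0.57 and the coactivator CREBBP by 0.36, both in 19 of 19 lines. In TK6, 7 rose and 6 fell, where 21.6% of all genes rose and 19.5% fell: PRDM1 rose by 2.25, the acetyltransferase KAT2B by 1.65, IRF1 by 1.49, RFXANK by 0.88 and RFX5 by 0.50, and RFXAP changed by 0.17 (adjusted p = 0.535). In MT1 none of the 19 was called by limma, and 3 were higher and 1 lower at an unadjusted p below 0.05. CIITA was higher in TK6 after MNNG by 205101_at, but 210925_at (0.069) and 211884_s_at (0.023) were not called. A relation between the changes of PRDM1 and CIITA was not tested. The median change of the list was 0.026 in the panel and 0.17 in TK6, against 0.037 and -0.029 over all genes.

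Of the processing and turnover genes, 22 of 24 were tested, and IFI30 was not analysed here. In the panel 9 rose and 2 fell, against the same shares of 28.7% and 13.8% of all genes, led by VPS33A of lysosome fusion (0.29) and LAMP1 of the lysosomal membrane (0.27, 19 of 19 lines), with CD81 falling by 0.18 and CTSD by 0.12. CTSS, the protease that trims the invariant chain, changed by -0.025 (adjusted p = 0.598) and LGMN by -0.029 (0.686). In TK6, 11 rose and 2 fell (21.6% and 19.5% of all genes): the cathepsins CTSH (2.26) and CTSZ (2.08) and LAMP1 (2.02) rose most, CTSS rose by 0.46, CTSC fell by 1.27 and CD63 by 0.48. In MT1 none of the 22 was called by limma (2 higher and 1 lower at an unadjusted p below 0.05), and the difference from MT1 was called for LAMP1 (2.12), CTSH (2.14) and CTSZ (1.91).

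The class I pathway, which presents cytosolic peptides to CD8 T cells, had 21 genes tested, of which 6 rose and 8 fell in the panel. The share that rose was close to the 28.7% of all genes that did, and 13.8% of all genes fell. TAPBP, which loads class I molecules, fell by 0.47 in 19 of 19 lines, PDIA3 by 0.31 and HLA-E by 0.21, and ERAP2 rose by 0.25. In TK6, 12 rose and 3 fell (21.6% and 19.5% of all genes), with the peptide transporter genes TAP1 and TAP2 rising by 2.09 and 1.64 and PDIA3 falling by 1.08. TAP1 and TAP2 lie in the class II region of chromosome 6 beside the HLA-DM and HLA-DO genes. Of the 8 costimulation genes, 3 rose and 2 fell in the panel (28.7% and 13.8% of all genes), where CD58 rose by 0.19, CD86 by 0.19 and ICAM1 fell by 0.31. In TK6, 6 rose and none fell (limma; 6 and 0 at an unadjusted p below 0.05), against 21.6% and 19.5% of all genes, CD80 by 1.70 and ICAM1 by 1.12. In MT1 none of the 21 class I genes was called by limma (2 higher and 4 lower at an unadjusted p below 0.05) and 1 costimulation gene was, CD58 (0.43), where 2.36% of all genes were called higher and 1.21% lower.

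Marker sums of other cell types moved beside the rise of the DM and DO genes in TK6. These sums are of deposited intensities without normalisation. The medians of the TK6 arrays were 29.0 and 26.8 untreated and 39.4 and 29.8 after MNNG. The summed intensity of 10 myeloid and dendritic markers, cells that also express class II, was 426 and 480 in untreated TK6 and 620.0 and 779 after MNNG, and of the 8 tested only ITGAM was called (2.27). The 12 T and NK cell markers summed to 819.8 and 883, then 513 and 673, and the 10 fibroblast and epithelium markers to 1160.4 and 1403, then 786 and 1096. The sum of 11 B-cell markers was 7565 and 7854, then 8266 and 8696, but its members moved in opposite directions, 3 called higher and 5 lower. MS4A1 went from 2248 and 2552 to 3245 and 3519, while CD79A went from 1109 and 1376 to 389 and 477 and CD79B from 371 and 376 to 187 and 244. The part of these markers in the rise of the DM and DO genes was not tested.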

How the data were processed

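The authors deposited linear intensities made with PLIER, as the submitters' processing notes name it; no source used here states its version, a genome build or array batches. They have a floor of 16 and a ceiling of 65535, and array medians of 16.0 to 64.4. Values were taken as log2(intensity + 16) and quantile normalised over the 82 arrays kept by the cre rule. The brightest single-symbol probe set stood for each gene, and the dimmest 30% of genes by mean level were dropped. Tests used limma 3.58.1 (R 4.3.3) with a trended prior and Benjamini-Hochberg adjustment over 13842 genes, with calls at adjusted p below 0.05. Panel duplicates were averaged with line as a block, and all other tests came from 1 model of 47 group means. Correlations used 100000 permutations (scipy 1.17.1). All members were named; of the other lists, the called genes with the largest panel changes were, and those named for TK6 or MT1 were picked after their values were seen. Members and lists were chosen with earlier results of these data known. Alternatives changed the pseudocount, scaling, filter, probe set rule, arrays, trend, blocks and samples. The scripts were tested on simulated data. The number of arrays limits the precision. Replicate numbers of 9 lines with both pairs of arrays gave correlations of -0.62 to 0.14 between same-numbered arrays, so they were not taken as pairs.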

Additional observations from a re-analysis of the deposited data

Results flagged for a closer look

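The response to MNNG differed between panel lines in 3 members, by the F test of the line by treatment terms (limma). The line changes spanned 0.52 log2 units for HLA-DMB (adjusted p = 0.00902), 0.72 for HLA-DOA (0.0224) and 0.86 for HLA-DOB (0.0252). None of the 3 was called on values as deposited, with median centring or without either panel replicate. HLA-DOA was not called without line 9 (0.52) or line 14 (0.71), nor HLA-DOB without line 4 (0.51), line 14 (0.86) or line 17 (0.84).

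The response of TK6 exceeded that of MT1 in 5 members, by the contrast of the responses: 1.85 log2 units for HLA-DMB, 1.63 for HLA-DOB, 1.39 for HLA-DOA, 1.03 for HLA-DMA and 0.38 for HLA-DPA1. The HLA-DM and HLA-DO differences were called under all 10 alternatives that kept the 82 arrays. They were also called without each of the 6 single arrays that could be left out. Where every probe set was fitted separately, this holds for the brightest one. The dimmer probe sets of HLA-DOA gave 0.89 (206313_at), 0.26 (217001_x_at), 0.092 (211142_x_at) and -0.044 (216946_at), and 1554984_a_at of HLA-DOB gave 0.15. The HLA-DPA1 difference was not called on values as deposited (0.36) or with median centring (0.60).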

How the results depend on the processing

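The numbers of called genes depended on scaling and on the arrays kept. On values as deposited, counts were 79 for response differences, 3623 for TK6, 99 for MT1, 1294 for TK6 minus MT1 and 1591 for untreated MT1 minus TK6. With median centring they were 3291 for the panel, 442 for response differences, 67 for MT1, 1682 for TK6 minus MT1 and 2057 for untreated MT1 minus TK6. With it 2 of 9 CIITA relations passed. On the quantile normalised levels, 5 passed without the 2 lines farthest in CIITA. Called genes in the panel split into 3978 higher and 1914 lower in the main setting, 4100 and 961 as deposited and 950 and 2341 with median centring, with the median of all genes at 0.037, 0.13 and -0.021; in MT1 that median was 0.033, 0.31 and -0.13. With every probe set fitted, counts were 12031 for the panel, 17590 for untreated lines, 10405 for TK6, 847 for MT1, 5408 for TK6 minus MT1 and 5909 for untreated MT1 minus TK6. With no array left out they were 9685, 1379, 464, 14, 126 and 178 in the same order, and 290 for response differences. The panel count was 2097 without the line block and 2415 with only the 8 lines that kept both MNNG arrays. Leaving out a replicate, line or array gave 1188 to 6262 for the panel, 3 to 932 for response differences, 2999 to 9469 for untreated lines and 212 to 326 for MT1, and 4794 to 4983 for TK6, 2892 to 3139 for TK6 minus MT1, 2741 to 2936 for untreated MT1 minus TK6 and 7 to 8 for the CIITA relations. Members that changed sign in the panel were HLA-DRA (-0.030 as deposited, -0.18 median centred, -0.13 with all arrays), HLA-DMA (-0.072 median centred), HLA-DOA (-0.0048 for the mean of its probe sets, -0.92 with all arrays), HLA-DPA1 (-1.90) and HLA-DPB1 (-2.27, both with all arrays); HLA-DRA of TK6 was -0.096 median centred. With the replicate block the MT1 count was 740, HLA-DRA of the panel was lost (0.032), and HLA-DPB1 of the panel (0.042) and CIITA of TK6 minus MT1 (0.62) were gained. The causes were not tested.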
